A study of Rattus norvegicus with 4 samples.

Results

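The microglia and complement genes are 10 genes found in the deposited tables by their symbol with case ignored, Cx3cr1, Csf1r, Aif1, P2ry12, C1qa, C1qb, C1qc, C3, Tyrobp and Trem2, out of 17445 rows in the 4 tables together. All 10 were listed for every library, and 9 of them reached the mean of 1 FPKM that was required for testing, C3 being the exception. The RNA came from the hippocampus of Wistar rat pups on postnatal day 1. The dams were given bisphenol A (BPA) daily by gavage at 5000 µg/kg body weight, or vehicle alone as the control, from gestational day 1 until delivery. There was 1 library for each combination of sex and treatment, 4 in all, and each library was a pool of 3 hippocampi. No group therefore has a replicate library, and p-values below use the 2 sexes, or the 2 treatments, as the only replication. FPKM, the unit of all levels, divides the sequenced fragments of a gene by its length and by the library total, so that levels can be compared between genes. The low values of the tables fall on steps of whole fragments, which gave an estimated depth of 8660000 to 8880000 fragments per library.

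Microglia are the resident macrophages of the brain. They enter it from the yolk sac before birth, depend on signals through the receptor CSF1R, and in the developing hippocampus clear dying cells and remove synapses. C1q, the recognition molecule of the classical complement pathway, is made in the brain mainly by microglia. It binds its targets and starts a protease cascade that cleaves C3, whose fragments are read by complement receptor 3 on microglia.

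The C1q molecule is assembled from A, B and C chains, and the 3 genes lie side by side in the rat genome, with 0 other genes between C1qb and C1qa except C1qc in the RefSeq table of assembly GRCr8. RefSeq promoter sequences, 250 bases before to 50 bases after the start, were matched by gene ID for 6 of the 10 genes (Cx3cr1, Csf1r, C1qa, C1qb, C3 and Trem2). They were searched on both strands for GAGGAAGT, a binding motif of PU.1, the macrophage transcription factor encoded by Spi1, and for GAGGAA, which is its first part, so that each match of the longer motif also counts for the shorter. The longer motif was in 0 of these 6 promoters and in 2.42% of the 33469 promoters of the table. The shorter motif was in 3 of the 6 (Csf1r, C1qb and Trem2) and in 27.6% of all promoters. Its first base lay at -229 and -95 from the start of Csf1r, at -247 and -90 in C1qb and at -29 in Trem2, on the strand opposite to the gene in each case but C1qb at -247. The promoters of the neighbours C1qa and C1qb are shown because their transcripts had the highest levels among the 10 genes, and those of Csf1r and Trem2 because they hold the shorter motif, which is in capitals in either orientation.
C1qa promoter, GRCr8 chr5:154419884-154420183, minus strand: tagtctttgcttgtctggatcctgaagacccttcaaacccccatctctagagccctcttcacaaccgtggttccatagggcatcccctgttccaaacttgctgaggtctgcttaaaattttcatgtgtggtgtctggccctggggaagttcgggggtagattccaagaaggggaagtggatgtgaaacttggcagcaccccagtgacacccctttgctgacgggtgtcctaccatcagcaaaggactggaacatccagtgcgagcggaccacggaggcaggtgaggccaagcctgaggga
C1qb promoter, GRCr8 chr5:154407778-154408077, minus strand: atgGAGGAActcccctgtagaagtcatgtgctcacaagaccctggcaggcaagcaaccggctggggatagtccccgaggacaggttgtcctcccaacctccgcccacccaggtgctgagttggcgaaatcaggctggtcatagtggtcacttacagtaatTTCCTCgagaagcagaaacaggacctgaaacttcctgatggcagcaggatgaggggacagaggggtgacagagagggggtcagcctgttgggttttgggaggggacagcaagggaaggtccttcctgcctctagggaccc
Csf1r promoter, GRCr8 chr18:56834129-56834428, plus strand: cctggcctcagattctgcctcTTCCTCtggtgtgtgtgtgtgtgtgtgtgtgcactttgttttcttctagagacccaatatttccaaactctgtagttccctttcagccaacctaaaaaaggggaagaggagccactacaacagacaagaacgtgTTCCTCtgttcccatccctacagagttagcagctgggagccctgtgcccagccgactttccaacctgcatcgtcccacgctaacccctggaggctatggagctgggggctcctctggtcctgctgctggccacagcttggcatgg
Trem2 promoter, GRCr8 chr9:20151730-20152029, minus strand: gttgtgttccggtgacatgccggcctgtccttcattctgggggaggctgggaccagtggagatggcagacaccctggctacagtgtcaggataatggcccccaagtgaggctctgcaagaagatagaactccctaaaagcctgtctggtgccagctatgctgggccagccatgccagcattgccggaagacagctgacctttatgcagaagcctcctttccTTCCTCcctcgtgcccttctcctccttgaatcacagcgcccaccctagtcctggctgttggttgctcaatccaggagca
A match of these letters is a description of the sequence and was not tested for binding.

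The 3 C1q chains and Csf1r were the most abundant of the 10 transcripts, and C3 was near the lowest value the tables list. Averaged over the 4 libraries, the order was C1qa (10.7 ± 1.17 FPKM, SD, n = 4 libraries), C1qb (10.3 ± 0.894), Csf1r (8.51 ± 0.620), C1qc (8.01 ± 0.977), Aif1 (7.83 ± 2.35), Tyrobp (6.67 ± 1.72), P2ry12 (3.99 ± 0.463), Cx3cr1 (2.89 ± 0.781), Trem2 (2.23 ± 0.222) and C3 (0.0875 ± 0.0680). This SD is taken across sexes and treatments. The ranges of neighbours in this order overlapped at every step except the last, from Trem2 to C3. The 9 genes other than C3 lay above 28.7% to 62.8% of the rows of their library, and rested on 18 to 414 fragments. The intervals given below for levels and changes are 95% intervals for counting error alone (exact Poisson for levels) and do not cover variation between pups or pools.

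**Figure D1:**
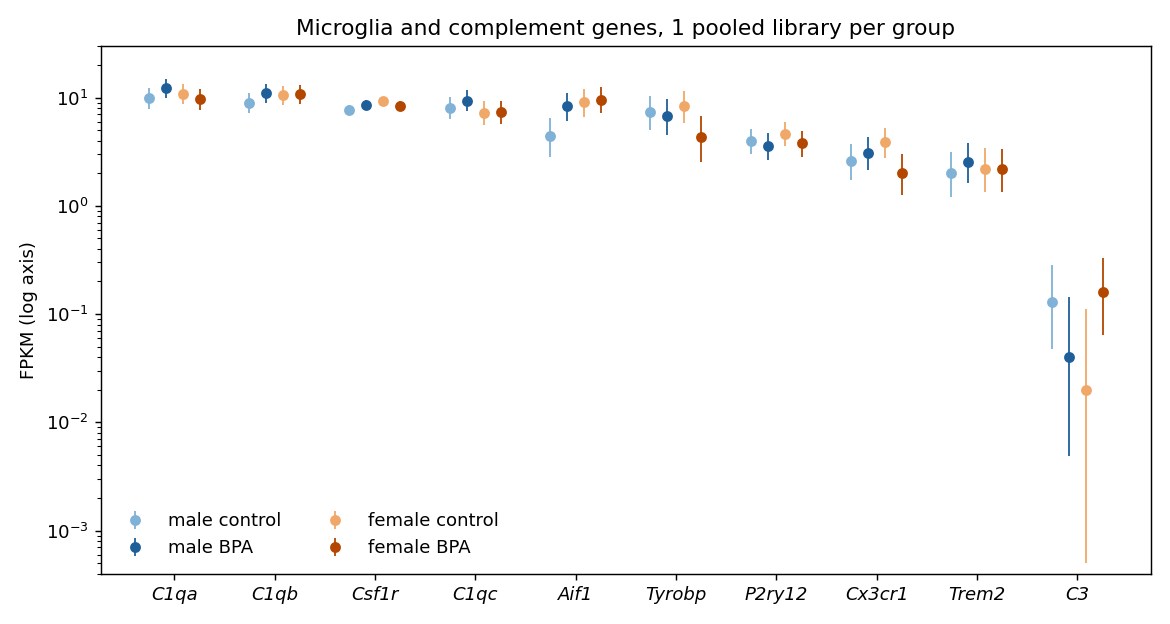
FPKM on a log axis for the 10 genes in each of the 4 libraries (colours), ordered by mean level; points are the deposited values and bars their 95% Poisson intervals for counting error. C1qa sits at 9.62 to 12.2 FPKM, Trem2 at 2.01 to 2.54 and C3 at no more than 0.16.

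Among the receptors and markers of the microglial cell, Csf1r was the most evenly expressed and Aif1 the least. Csf1r (gene ID 307403), the receptor for the growth factors CSF1 and IL-34, was at 7.75 FPKM in control males, 8.59 in BPA males, 9.26 in control females and 8.43 in BPA females. The highest of these values was 1.19 times the lowest, and the BPA values lay between the control values. Aif1 (gene ID 29427), which encodes the calcium-binding protein IBA1 used to stain microglia, was at 4.39, 8.31, 9.03 and 9.57 FPKM in the same order. Its male control library stood below the other 3, with 24 fragments against 45 to 52, so that the change with BPA on log2(FPKM + 1) was 0.79 in males (counting interval 0.19 to 1.39) and 0.08 in females (-0.43 to 0.58). The BPA and control libraries overlapped, whereas both female libraries were above both male libraries.

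Cx3cr1 and P2ry12 encode receptors by which microglia sense neurons. Cx3cr1 (gene ID 171056), the receptor for the neuronal chemokine fractalkine, was at 2.61 FPKM in control males, 3.08 in BPA males, 3.85 in control females and 2.0 in BPA females. The female libraries were thus the extremes, and the change was 0.18 in males (-0.35 to 0.70) and -0.69 in females (-1.22 to -0.16), from 42 fragments to 22. P2ry12 (gene ID 64803), the nucleotide receptor of surveying microglia, was at 3.97, 3.57, 4.64 and 3.78 FPKM. Both BPA libraries were below both control libraries, by 0.12 in males and 0.24 in females on the log2 scale, each within its counting interval (-0.55 to 0.31 and -0.66 to 0.18). In the RefSeq table the span of P2ry12 overlaps Med12l and that of Cx3cr1 overlaps the locus LOC134480114. These are spans in GRCr8, whereas the counts used rn6 with no stated annotation or strand. Whether reads were shared between these genes was not tested.

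The transcripts of the 3 C1q chains stayed close to each other. C1qa (gene ID 298566) was at 9.90 FPKM in control males, 12.2 in BPA males, 10.9 in control females and 9.62 in BPA females. C1qb (gene ID 29687) was at 8.97, 10.9, 10.5 and 10.8 FPKM, with both BPA libraries above both controls, though by only 0.03 on the log2 scale in females. C1qc (gene ID 362634) was at 8.07, 9.37, 7.27 and 7.33 FPKM, with both female libraries below both male libraries. In males all 3 chains were higher in the BPA library, by 0.28, 0.26 and 0.19, while in females the differences were -0.16, 0.03 and 0.01.

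Summed over the chains, C1q was at 26.9 FPKM in control males, 32.5 in BPA males, 28.7 in control females and 27.7 in BPA females. These sums rest on 240 fragments (95% Poisson interval 211 to 272), 288 (256 to 323), 252 (222 to 285) and 246 (216 to 279), and the 4 intervals overlap. C1qa made up 34.7% to 38.0% of the sum, C1qb 33.3% to 38.8% and C1qc 25.4% to 29.96%. The C chain had the smallest share in every library, and the B chain exceeded the A chain only in female BPA. C1q made up 43.4% to 49.7% of the FPKM of the 10 genes.

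C3 (gene ID 24232), the central component on which the complement pathways converge, was at 0.13 FPKM in control males, 0.04 in BPA males, 0.02 in control females and 0.16 in BPA females. These values correspond to 6, 2, 1 and 7 fragments over a gene model of 5091 bases. The highest value was in a BPA library, the next to lowest in the other BPA library, and at this depth no difference between the groups was detectable.

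Tyrobp encodes DAP12, the signaling adaptor with an immunoreceptor tyrosine-based activation motif (ITAM), and Trem2 encodes a lipid-sensing receptor that signals through it. Tyrobp (gene ID 361537) was at 7.35 FPKM in control males, 6.73 in BPA males, 8.32 in control females and 4.29 in BPA females. Both BPA libraries were below both control libraries, and the female BPA library was lowest, with 18 fragments against 28 to 35. The change was -0.11 in males (-0.76 to 0.53) and -0.82 in females (-1.51 to -0.13). Trem2 (gene ID 301227) was at 2.01, 2.54, 2.2 and 2.18 FPKM, a change of 0.23 in males (-0.37 to 0.84) and -0.01 in females (-0.62 to 0.61). The ratio of Tyrobp to Trem2 was 3.66 in control males, 2.65 in BPA males, 3.78 in control females and 1.97 in BPA females, the lower value of each sex being in BPA.

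To ask whether prenatal BPA changed these genes when both sexes were combined, the 2 BPA libraries were compared with the 2 control libraries in limma across all 13542 rows with a mean of at least 1 FPKM. None of the 9 tested genes passed a Benjamini-Hochberg adjusted p under 0.05, and 0 of the 13542 rows did (0%). At an unadjusted p under 0.05 limma gave 0 of the 9 genes and 637 rows (4.70%). The log2 fold change was furthest below 0 for Tyrobp (-0.46, standard error 0.21, unadjusted p 0.0651, adjusted p 0.973 in limma) and furthest above 0 for Aif1 (0.43, standard error 0.28, adjusted p 0.973 in limma). Cx3cr1 was at -0.26 (standard error 0.25), and the other 6 genes were between -0.18 for P2ry12 and 0.14 for C1qb. Of the 10 genes, 1 had both BPA libraries above both controls (C1qb) and 2 had both below (P2ry12 and Tyrobp), where 13.8% of all rows tested were higher and 19.9% lower in this way. With 2 libraries on each side, the smallest two-sided p of an exact permutation test is 0.333.

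Within each sex, 1 library was set against 1 and no test was possible. A change of more than 1 on the log2 scale in either direction was seen for 0 of the 10 genes in males (1.69% of the rows tested) and for 0 in females (2.16%). Past 0.5 there was 1 gene in males, Aif1, which was higher in BPA (3.34% of rows were), and there were 2 in females, Cx3cr1 and Tyrobp, both lower in BPA (6.79% of rows were). The counting interval of the change excluded 0 for 1 of the 9 tested genes in males (25.9% of 10857 rows with a gene ID) and for 2 of 9 in females (36.0%). The median change of the 10 genes was 0.18 in males and -0.07 in females, against 0 and -0.04 for the 16375 rows listed for every library. In males 7 of the 10 were above 0 and in females 4, and the signs were opposite for 5 (43.2% of the rows tested). Trem2 was 1 of these 5 by its female change of -0.01 alone, which was above 0 with quantile normalization (0.14) and with median-of-ratios scaling (0.025).

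**Figure D2:**
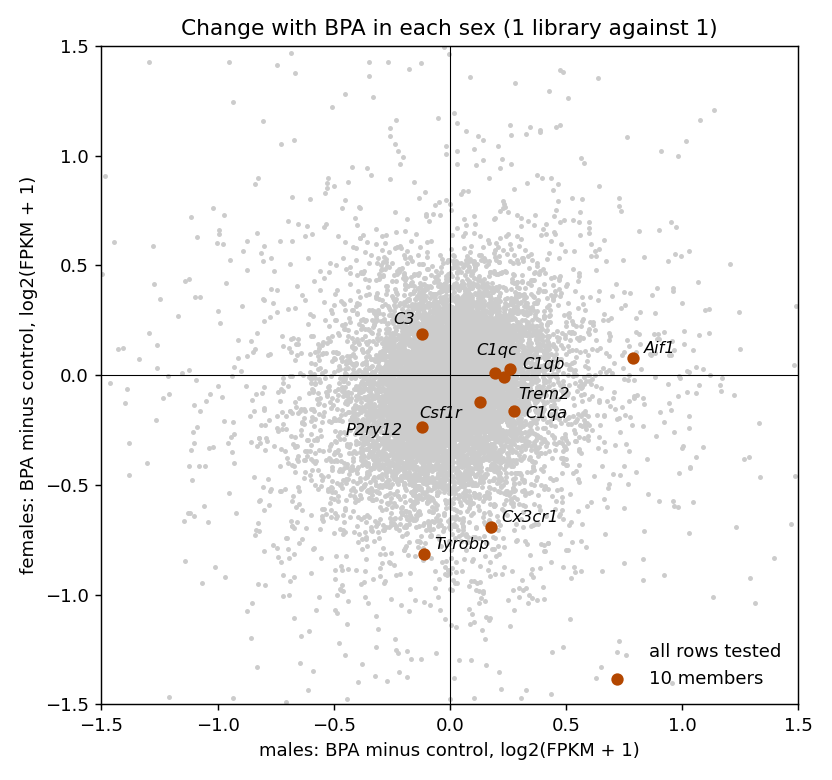
Change with BPA on log2(FPKM + 1) in males (horizontal axis) and in females (vertical axis), each 1 library against 1; grey points are the 13542 rows tested, of which 209 lie outside the axes, and orange points the 10 genes. Aif1 lies to the right at 0.79 in males, Cx3cr1 and Tyrobp lie low at -0.69 and -0.82 in females, and the C1q chains lie within 0.28 of 0 in both sexes.

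The study asks about sex differences, and the 2 female libraries were therefore also compared with the 2 male libraries. None of the 9 tested genes passed an adjusted p under 0.05 in limma, where 1 of 13542 rows did (0.00738%). That row, named after its value was seen, is LOC100911498, the rat Xist locus. At an unadjusted p under 0.05 limma gave 0 of the 9 genes and 1442 rows (10.6%). With treatment as a covariate limma gave 1940 rows and, of the 9 genes, Aif1 alone (unadjusted p 0.0226, adjusted p 0.261). The difference of female minus male was largest for Aif1 (0.54, standard error 0.25, adjusted p 0.513 in limma) and lay between -0.22 for C1qc and 0.12 for P2ry12 for the others. Of the 10 genes, 1 had both female libraries above both male libraries (Aif1) and 1 below (C1qc), where 19.8% and 22.5% of all rows were.

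The summed level of the 10 genes was 55.2 FPKM in control males, 65.4 in BPA males, 66.0 in control females and 58.1 in BPA females, higher in BPA than in control for males and lower for females. In tissue RNA, fewer microglia and less RNA per microglial cell cannot be told apart. The highest sum of the 10 genes was 1.20 times the lowest, a ratio that was 1.12 for neuron markers, 1.13 for radial glia and astrocyte markers, 2.67 for border macrophage markers, 4.61 for meningeal markers and 36.8 for choroid plexus markers. Markers of meninges and fibroblasts, which form the covering of the brain, summed to 368 FPKM in female control (8 of 8 genes listed) and to 79.8 to 99.98 in the other 3 libraries, and 7 of the 8 were past a log2 fold change of -1 in females. Border macrophages, the other macrophages of the brain's coverings, share Csf1r, Aif1, Tyrobp and the C1q chains with microglia. The 7 of their 12 markers that were listed for every library summed to 12.8 FPKM in female control and to 4.81 to 6.15 in the others. Lyve1, a hyaluronan receptor, was at 2.09, 2.61, 5.12 and 2.26 FPKM in control males, BPA males, control females and BPA females, and the mannose receptor Mrc1 at 1.07, 1.17, 2.81 and 1.19.

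The female control library, in which these markers were highest, also had the highest Cx3cr1, Tyrobp, Csf1r and P2ry12. The other genes did not follow this, with C1qa, C1qb, C1qc and Trem2 highest in male BPA and Aif1 and C3 in female BPA. The part of the other cells in these differences was not tested. Leaving out a single library moved the limma log2 fold change with BPA for all 9 tested genes. It changed the sign for Csf1r, Aif1, C1qa and C1qc. The 3 genes furthest from 0 with all libraries are given here. For Cx3cr1 it was -0.05 without female control and -0.04 without female BPA, against -0.47 without male control and -0.48 without male BPA. For Tyrobp it was -0.38 without female control, -0.19 without female BPA, -0.54 without male control and -0.74 without male BPA. For Aif1 it was 0.88 without female control, 0.34 without female BPA, 0.52 without male BPA and -0.02 without male control. Each of these fits leaves 1 library in a group, so only the effect sizes are given. Markers of blood leukocytes were low, with 8 of 16 listed for every library and a summed 2.44 to 4.65 FPKM, Lyz2, which macrophages also express, being the most abundant of them in each library. Choroid plexus markers were high in the male libraries (277 FPKM in control and 718 in BPA, against 19.5 and 53.3 in females). Transthyretin (Ttr) carried most of the male sums, and without it the list was at 20.5, 28.4, 15.6 and 10.9 FPKM in control males, BPA males, control females and BPA females. Besides the meningeal genes, the list genes with a mean of at least 1 FPKM past a log2 fold change of 1 in a sex were Ttr (1.42 in males and 3.13 in females) and the globin loci LOC100134871 (3.94 and 1.65) and LOC689064 (-1.07 and -0.95), whose near-identical copies make their levels uncertain. Unlike Ttr, 4 of the 6 tested choroid plexus genes were below 0 in females. The 8 neuron markers summed to 2809 to 3151 FPKM, with Tubb3, a neuronal tubulin, the most abundant at 1150 to 1412.

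**Figure D3:**
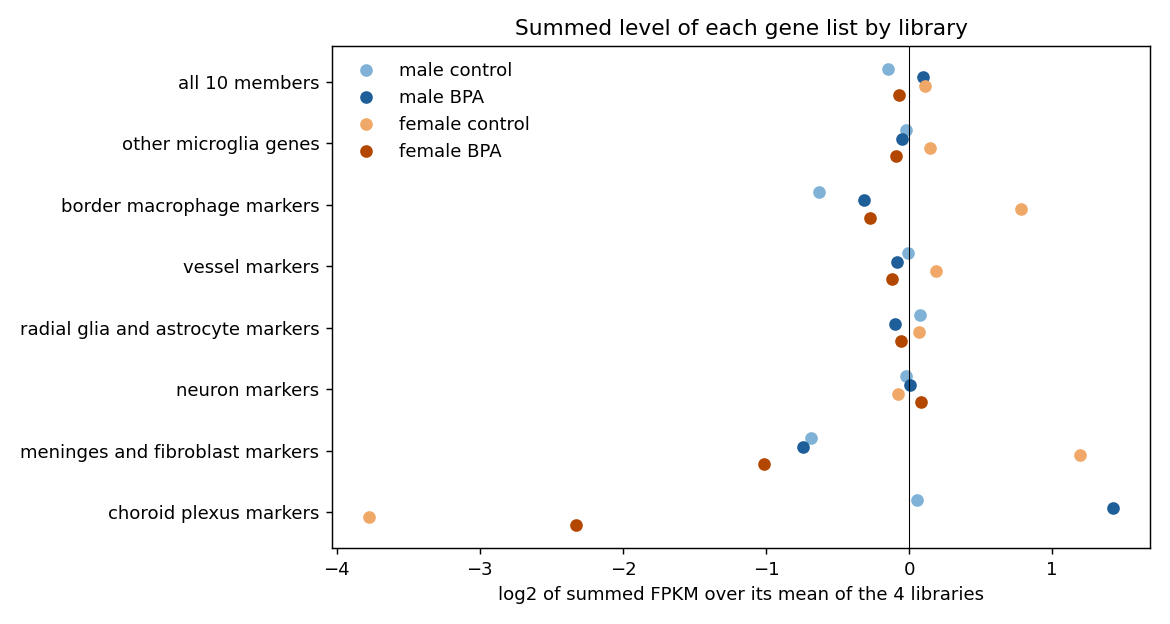
Log2 of the summed FPKM of each gene list over its mean of the 4 libraries, with 1 point per library. The 10 microglia and complement genes and the 28 other microglia genes stay near 0, while meninges and border macrophage markers stand to the right in female control and choroid plexus markers spread the most.

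Of 31 further microglia genes 28 were listed for every library and 13 were tested, with 0 past an adjusted p and 0 past an unadjusted p under 0.05 in limma for BPA. Their median change was -0.09 in males and -0.17 in females, and the summed level was 94.8, 92.8, 106 and 90.0 FPKM in control males, BPA males, control females and BPA females. Lgmn, an enzyme of the lysosome, was the most abundant at 26.4 to 29.2 FPKM. Ctss, a macrophage protease, was at 7.50, 8.22, 9.14 and 6.72 FPKM, and Fcer1g, an ITAM adaptor like DAP12, at 6.14, 8.53, 8.12 and 6.37 FPKM. For both, the BPA library was above its control in males and below it in females. Olfml3, a secreted protein enriched in microglia whose gene overlaps LOC102547265, was highest in female control, at 7.21 FPKM against 3.43 to 4.61. Tmem119, a defining marker of mature microglia, was low throughout, at 1.39, 0.43, 1.15 and 0.43 FPKM, and below 1 FPKM on average, so it was not tested.

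Of the transcription factors that shape microglia, 9 of 10 were listed and 6 tested, with 0 past an unadjusted p under 0.05 for BPA in limma. Spi1, which encodes PU.1, was at 1.21, 1.65, 2.02 and 1.22 FPKM in control males, BPA males, control females and BPA females, and its partner Irf8 at 1.59, 1.69, 0.95 and 0.94 FPKM. Sall1, Cebpa and Bin1, which other cells of the brain express as well, were higher than both.

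The ligands of the receptors were mostly more abundant than the receptors themselves. Il34, the neuronal ligand of CSF1R, was at 21.5 to 23.1 FPKM and was 5.70 to 8.72 times as high as the other ligand, Csf1, although its span overlaps LOC134483366 and Rpl29l3. Cx3cl1, which encodes fractalkine, was at 19.1, 18.5, 17.7 and 16.2 FPKM, or 7.32, 5.99, 4.58 and 8.08 times Cx3cr1. Cd200 and Cd47, neuronal surface proteins that restrain microglia and phagocytosis, were at 94.5 to 115 and 30.1 to 37.8 FPKM. None of the 9 ligand genes, all tested, passed an unadjusted p under 0.05 in limma for BPA, and their median change was -0.02 in males and -0.12 in females. Of 13 genes of ITAM and phagocytic signaling 12 were listed and 6 tested, with the same count of 0. Sirpa, the receptor for CD47, was the most abundant at 27.7 to 30.2 FPKM, and the receptors Axl and Mertk, which bind dying cells through Gas6, were at 6.73 to 8.19 and 0.91 to 1.45 FPKM.

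Beyond C1q and C3, the complement pathway was measured through its proteases and effectors, receptors and inhibitors. Of 24 proteases and effectors 13 were listed for every library and 9 tested, with 0 past an unadjusted p under 0.05 in limma for BPA. C1r and C1s, the proteases that C1q activates, were at 3.05 to 4.35 and 2.06 to 2.57 FPKM, below each C1q chain in every library, and C2, which C1s cleaves, was at 1.27 to 1.95 FPKM. Factor B (Cfb), a protease of the alternative pathway, stood out in female control with 1.84 FPKM against 0.58 to 0.72 and was not tested at its mean. Properdin (Cfp), which stabilises the convertase of that pathway, was at 2.67, 3.56, 4.47 and 3.45 FPKM. The lectin pathway proteases Masp1 and Masp2 were at 35.7 to 40.6 and 34.3 to 36.4 FPKM, but the spans of Masp1 and Masp2 overlap Rtp4 and Tardbp, so that these levels are uncertain.

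Most of the receptors by which leukocytes read complement fragments were low. Itgam and Itgb2, the subunits of complement receptor 3, were at 0.73 to 1.19 and 0.44 to 0.80 FPKM, and C5ar1 was at 0.33 to 0.47 FPKM. Other genes of the receptor list were higher, among them Cr1l at 16.75 to 21.1 FPKM and Cd93 at 4.79 to 7.61 FPKM. Of the 11 receptor genes 9 were listed and 3 tested. Of these 3, Calr passed an unadjusted p under 0.05 in limma, as 4.70% of all rows did. It encodes calreticulin, a chaperone of the endoplasmic reticulum that also binds C1q, and was at 254 FPKM in control males against 193 in BPA males and at 255 in control females against 205 in BPA females. Its log2 fold change in limma was -0.35 (standard error 0.09, unadjusted p 0.00776, adjusted p 0.973), and both BPA libraries were below both control libraries.

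Inhibitors of complement were more abundant in sum than its proteases and effectors, at 369 to 420 FPKM against 88.5 to 103. The neuronal proteins Sez6, Sez6l and Sez6l2, which carry complement control domains, were at 66.1 to 141 FPKM and made up most of that sum, and without them the inhibitors were at 99.6 to 122 FPKM. Clu, a secreted inhibitor of the terminal complex whose span overlaps Scara3, was at 72.7, 73.0, 58.8 and 49.2 FPKM in control males, BPA males, control females and BPA females, with both female libraries below both male libraries. Cd59, which blocks the same complex at the membrane, was at 26.4, 31.4, 30.1 and 33.2 FPKM. Of 17 inhibitors 15 were listed and 10 tested, with 0 past an unadjusted p under 0.05 in limma for BPA. The C1 inhibitor (Serping1), which vessels and meninges also make, was highest in female control, at 2.77 FPKM against at most 2.22 in the other libraries.

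**Figure D4:**
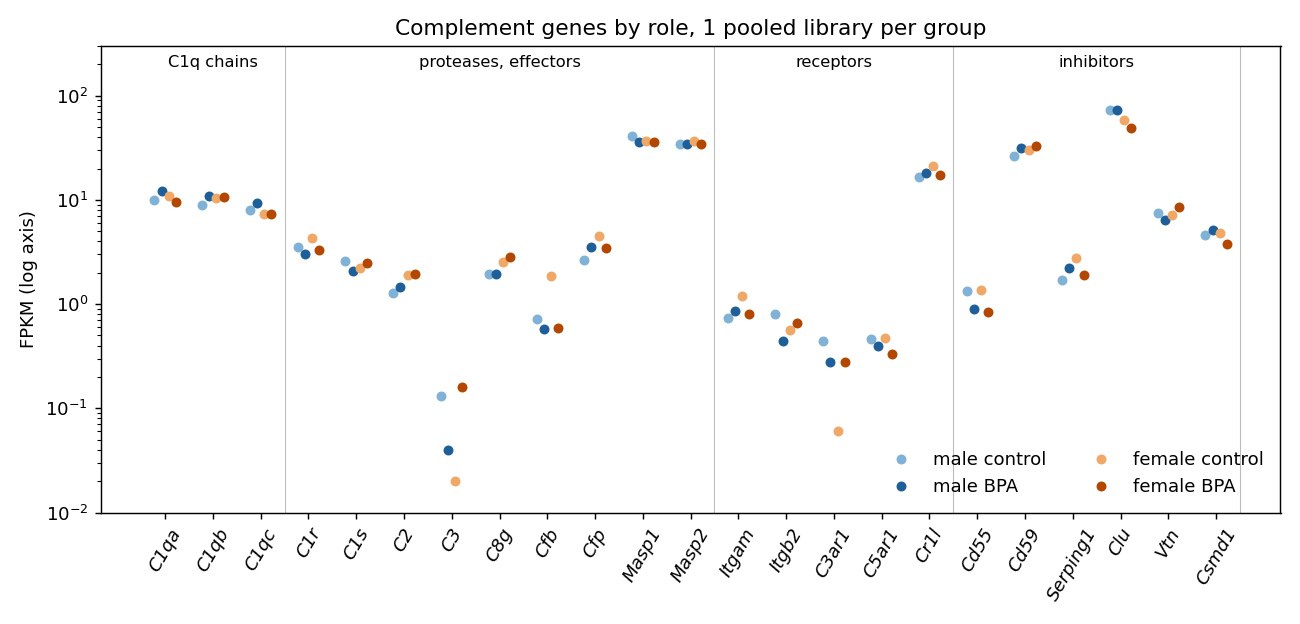
FPKM on a log axis of complement genes grouped by role, with 1 point per library. The C1q chains lie at 7.27 to 12.2 FPKM, C1r and C1s lower, C3 at 0.02 to 0.16, and the inhibitors Clu and Cd59 above 26 FPKM.

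Of 23 genes of activated microglia and of microglia in growing white matter, 20 were listed for every library and 13 tested, with 0 past an adjusted p and 2 past an unadjusted p under 0.05 in limma for BPA (Apoe and Lgals1, both lower in BPA in each sex, where 4.70% of all rows passed). The abundant members, Fabp5, Apoe, Ctsb and Cd63, are made by other cells of the newborn brain as well. Spp1, which encodes osteopontin, was at 0.78, 1.26, 2.72 and 1.11 FPKM, and the interleukin gene Il1b was at most 0.18 FPKM. The cytokine gene Tnf was higher, at 10.76 FPKM in control males, 14.67 in BPA males, 15.11 in control females and 14.15 in BPA females. Astrocyte and radial glia markers, by comparison, were lower in BPA for all 8 genes in both sexes, with a median of -0.25 and -0.36. Of the 8, 4 passed an unadjusted p under 0.05 in limma (4.70% of all rows) and none an adjusted p. Both BPA libraries were below both controls for 7 of the 8, as for 19.9% of all rows tested.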

How the data were processed

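The authors deposited FPKM values (2 decimals, lowest listed value 0.01) for 1 pooled library per group. The submitters' processing notes name HISAT 0.1.6, Bowtie2 2.2.5 and RSEM, with genome build rn6. Neither annotation nor strand setting is named in the sources used here. Fragments were estimated from the whole-number steps of low FPKM values, of which 95.9% to 98.8% lay within 0.15 of a whole fragment. Values were taken as log2(FPKM + 1), a scale on which changes of low genes come out too small. Rows with a mean of at least 1 FPKM were compared in limma 3.58.1 (R 4.3.3, moderated with a mean-variance trend) with Benjamini-Hochberg adjustment, 2 BPA against 2 control libraries and 2 female against 2 male. The scripts were tested on simulated data. Members and gene lists were chosen with earlier results of these data known. Named list genes are the 6 with the highest mean FPKM of each list, those past a log2 fold change of 1 in a sex at a mean of at least 1 FPKM, and those with a role in a question the text poses, the latter chosen after their values were seen, and some list genes are not reported here. Sequences come from RefSeq assembly GRCr8 and were matched by gene ID. Alternatives were another pseudocount, filter, normalization and covariate, and leaving out each library.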

Additional observations from a re-analysis of the deposited data

Results flagged for a closer look

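For 5 of the 10 genes the change with BPA had opposite signs in males and females, as it had for 43.2% of the rows tested. On log2(FPKM + 1), the change in females minus that in males was -0.87 for Cx3cr1, -0.44 for C1qa, -0.25 for Csf1r, -0.24 for Trem2 and 0.31 for C3. With 1 library per group these differences were not tested. Trem2 is among the 5 through a change of -0.01 in females, which was 0.14 with quantile normalization and 0.025 with median-of-ratios scaling, the same sign as in males, and the values for C3 rest on 1 to 7 fragments.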

How the results depend on the processing

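None of the 9 tested genes passed an adjusted p under 0.05 in limma with another pseudocount, filter, normalization or covariate. An unadjusted p under 0.05 was reached there by Tyrobp for BPA with sex as a covariate. Aif1 reached it for sex with treatment as a covariate. Fits without a library leave 1 library in a group, so only their effect sizes are given. Signs were kept in 42 of 42 alternative values in males and in 40 of 42 in females, the exceptions being Trem2 with quantile normalization (0.14) and with median-of-ratios scaling (0.025). In limma 6 of 87 values for BPA and 7 of 87 for sex changed sign, and the cause was not tested. When a library was left out, the BPA values that changed sign ran from -0.11 (without male control) to 0.12 for Csf1r, also -0.0069 without male BPA, from -0.016 (without male control) to 0.88 for Aif1, from -0.0996 (without male BPA) to 0.22 for C1qa, also -0.0043 without male control, and from -0.056 (without male BPA) to 0.26 for C1qc. The sex values ran from -0.36 to 0.34 (without female BPA) for Cx3cr1, also 0.079 without male BPA and 0.00098 with quantile normalization, from -0.23 to 0.043 (without male BPA) for C1qa, from -0.036 (without male control) to 0.22 for C1qb, from -0.60 to 0.21 (without female BPA) for Tyrobp and from -0.15 to 0.084 (without male BPA) for Trem2. Rows past an adjusted p for BPA numbered 0, 2 with sex as a covariate (1216 at an unadjusted p under 0.05) and 0 to 3 when a library was left out. For sex they numbered 1, 21 at a mean of at least 5 FPKM, 55 with treatment as a covariate and 1 to 2 when a library was left out. Rows past the fold were 229 in males and 293 in females, 491 and 580 with a pseudocount of 0.1, 28 and 60 at a mean of at least 5 FPKM, and 975 and 1349 past 0.5. Without C1qa the summed level was 45.3, 53.2, 55.1 and 48.5 FPKM in control males, BPA males, control females and BPA females. New gene models matched none of the 10 genes, so adding them gave no value. Libraries could not be paired by replicate number, because each group has 1 library. The fit with sex as a covariate pairs BPA with control within sex, and in it Tyrobp was at -0.46 (limma unadjusted p 0.0467, adjusted p 0.551). Depth limits the genes with few fragments, C3, Tyrobp, Trem2 and Cx3cr1.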
